A study of Mus musculus with 16 samples.

Results

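The 76 genes described here encode proteins of the mouse cytosolic ribosome, 46 of the large subunit and 30 of the small subunit, out of 24497 genes with a symbol in the deposited tables. They were chosen by name alone: the symbols Rpl or Rps followed by a number and at most a suffix a or x, with Rplp0, Rplp1, Rplp2 and Rpsa. Rps6k kinases, pseudogenes and paralogs named as like genes (Rpl3l, Rpl10l, Rpl32l, Rpl39l, Rps4l and Rps27l) were not members. Rps3a1, Fau and Rack1, which also encode ribosomal proteins, fall outside the naming rule and are given beside the members. All 76 passed the filter on low counts, which 14972 genes passed.

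A ribosome holds a single copy of nearly every one of these proteins beside its ribosomal RNA, and the proteins of the stalk (Rplp0, Rplp1 and Rplp2) recruit the translation factors. The genes are transcribed from separate loci, and their mRNAs are known for a run of pyrimidines at the very start, the terminal oligopyrimidine motif, through which mTOR signalling and Larp1 set their translation. Dividing myoblasts make ribosomes at a high rate, and the making of ribosomes is known to slow when muscle cells leave the cell cycle and fuse.

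The study sequenced poly(A) RNA of C2C12 cells, a mouse skeletal myoblast line whose labels give a C57BL/6 background, skeletal muscle as the source and an age of post natal day 21. The 8 groups of 2 libraries were MYOD-/- cells with the spliced form of MUNC, a long non-coding RNA (labelled ov MUNC), in DM and in GM; MYOD-/- cells with the control vector EV in DM and in GM; WT cells with MUNC in DM and in GM; and WT cells with EV in DM and in GM. DM stands for differentiating and GM for proliferating cells, every line carried a stably transfected vector, and the MYOD-/- cells were made with CRISPR-Cas9 and screened as single cells, with the number of clones not given in the sources used here. The labels do not say whether the 2 libraries of a group stem from separate cultures. Each p-value below therefore reflects the scatter among the libraries at hand, which may be technical.

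The libraries held 3.58e+07 to 1.08e+08 estimated counts. Myod1 went against the genotype labels. It was at 4.18 to 33.1 CPM (estimated counts relative to the scaled library size) in the 8 libraries labelled MYOD-/-, at 1.70 to 4.06 CPM in the 4 labelled WT with MUNC and at 0.0136 to 0.291 CPM in the 4 labelled WT with EV. The genotypes below are therefore those of the labels, and each direction between them rests on labels that Myod1 contradicts. MUNC (Gm45923) was at 1821 to 2670 CPM in the libraries labelled WT MUNC and at 43.0 to 132 CPM in those labelled MYOD-/- MUNC, against 1.15 to 12.4 CPM in all EV libraries. Zrsr1 took 1.49% to 12.97% of the counts in the 8 libraries numbered 2 and at most 0.0344% in the 8 numbered 1. All 10 skeletal muscle markers of a list had counts in every group, though Myod1 had only 1 in replicate 2 of labelled WT EV. Their summed level was 1323 to 1430 TPM (a level per length, relative to all transcripts) in labelled MYOD-/- MUNC cells and 1120 to 1125 TPM in labelled MYOD-/- EV cells in DM, 276 to 386 TPM in labelled WT MUNC cells and 140 to 182 TPM in labelled WT EV cells in DM, and 107 to 214 TPM in GM. The 6 fibroblast markers of another list, 5 of which passed the filter, summed to 5027 to 6009 TPM in labelled WT EV cells in DM, against 281 to 606 TPM in GM. They were higher in DM in the other lines too. In labelled MYOD-/- MUNC cells they summed to 1692 to 2684 TPM in DM, against 73.2 to 333 TPM in GM. In labelled MYOD-/- EV cells they summed to 1298 to 2591 TPM against 115 to 362 TPM. In labelled WT MUNC cells they summed to 691 to 1158 TPM against 88.6 to 173 TPM. Single genes of this list ranked the lines differently in DM, as given below for the EV lines.

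The starts of the genes are shown first, since a pyrimidine run at the start is the motif these mRNAs are known for. The starts are those annotated, and whether these cells use them was not tested. RefSeq promoter windows (GRCm38.p6) matched 56 of the 76 members. A window from 10 bases before the annotated start to 20 bases after it held a run of at least 8 C or T in 20 of the 56 members, which is 35.7%, against 1304 of 11666 other tested genes, which is 11.2%. The letters CTTTCC on the gene strand, which can lie within such a run, were in 8 of the 56 windows, which is 14.3%, against 1.11% of the other genes. In the wider window of 250 bases before to 50 after the start, ACTTCCGG on either strand was found for 11 members, which is 19.6%, against 7.59% of the others, and AAGATGGC on either strand for 4 members, which is 7.14%, against 4.41%. TATAAA lay 40 to 15 bases before the start of 0 of the 56 members and of 1.603% of the others. The first 6 windows below have the longest runs, and the next 4 belong to members with a large or a small change in differentiation. Each is written 5′ to 3′ on the gene strand, and capitals mark the longest run of C or T.

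Rpl27a: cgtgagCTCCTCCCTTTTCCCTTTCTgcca
Rpl35: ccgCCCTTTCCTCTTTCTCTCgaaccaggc
Rpl7a: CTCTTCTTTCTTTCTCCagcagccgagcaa
Rpl15: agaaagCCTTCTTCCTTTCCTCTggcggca
Rpl13a: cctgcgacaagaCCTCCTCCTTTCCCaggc
Rpl14: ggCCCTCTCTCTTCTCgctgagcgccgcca
Rps2: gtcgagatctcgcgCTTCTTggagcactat
Rpsa: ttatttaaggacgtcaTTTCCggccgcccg
Rps27: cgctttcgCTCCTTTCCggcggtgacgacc
Rpl22: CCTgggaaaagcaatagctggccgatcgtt

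The run was 20 bases long for Rpl27a (chr7:109519185-109519214, plus strand), 18 for Rpl35 (chr2:39005112-39005141, minus strand), 17 for Rpl7a (chr2:26910797-26910826, plus strand) and for Rpl15 (chr14:18270967-18270996, minus strand), and 14 for Rpl13a (chr7:45128726-45128755, minus strand) and Rpl14 (chr9:120571507-120571536, plus strand). It was 9 bases for Rps27 (chr3:90213629-90213658, minus strand), 6 for Rps2 (chr17:24720053-24720082, plus strand), 5 for Rpsa (chr9:120127756-120127785, plus strand) and 3 for Rpl22 (chr4:152325716-152325745, plus strand). All 10 windows span the annotated start of a protein-coding gene. Run length was set against the differentiation change only by a split at 8 bases, and no ordering over the members was tested. The median log2 fold change, DM minus GM over the 4 lines, was -0.59 for the 20 members with a run of at least 8 and -0.55 for the 36 with a shorter run.

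The members were among the most abundant mRNAs of these cells. Their median level over the 16 libraries was 2016 TPM, against 14.7 TPM for all tested genes. Levels above 1000 TPM were reached by 67 of the 76, and 57 were among the 100 most abundant genes. The highest mean levels were those of Rps12 at 6407 TPM, Rplp1 of the stalk at 6309 TPM, Rpl41, which encodes the shortest of these proteins, at 5945 TPM, Rps18 at 5683 TPM and Rpl23a at 4411 TPM. The lowest were those of Rpl26 at 35.5 TPM, Rps15a at 153 TPM, Rpl22 at 236 TPM, Rps20 at 369 TPM and Rpl29 at 725 TPM. The mean effective length was 4946 bases for Rps15a and 3234 bases for Rps20, against 353 bases for Rpl26, and a long annotated transcript lowers a level per length. The effective length of the very short Rps28 mRNA ranged from 126 to 140 bases between libraries.

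Rpl26 could not be measured on its own. Of the 31-base words of its processed pseudogene Gm15772, 84.8% are also in the Rpl26 transcripts, and the deposited counts gave Gm15772 an average of 37348 counts a library. Rpl26 received 0.273% to 1.94% of the counts of the pair, so its low level and each of its changes below depend on how shared reads were divided. Of the words of Rpl34-ps1, 80.9% are also in Rpl34, which held 60.3% to 69.8% of the counts of that pair.

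The members as a group took a smaller share of all transcripts in DM than in GM, and the share in DM was smallest in the labelled MYOD-/- cells. By TPM they made up 13.5% and 13.4% of transcripts in labelled MYOD-/- MUNC cells in DM, against 21.4% and 19.0% in GM. In labelled MYOD-/- EV cells the shares were 13.4% and 14.2% in DM, against 21.0% and 18.9% in GM. In labelled WT MUNC cells they were 15.1% and 16.99% in DM, against 19.4% and 18.8% in GM. In labelled WT EV cells they were 17.4% and 20.1% in DM, against 21.5% and 20.7% in GM. The DM and GM libraries did not overlap in any of the 4 lines, although in labelled WT EV cells the higher DM value lay close to the lower GM value, and the 4 labelled MYOD-/- libraries in DM lay below the other 12.

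**Figure D1:**
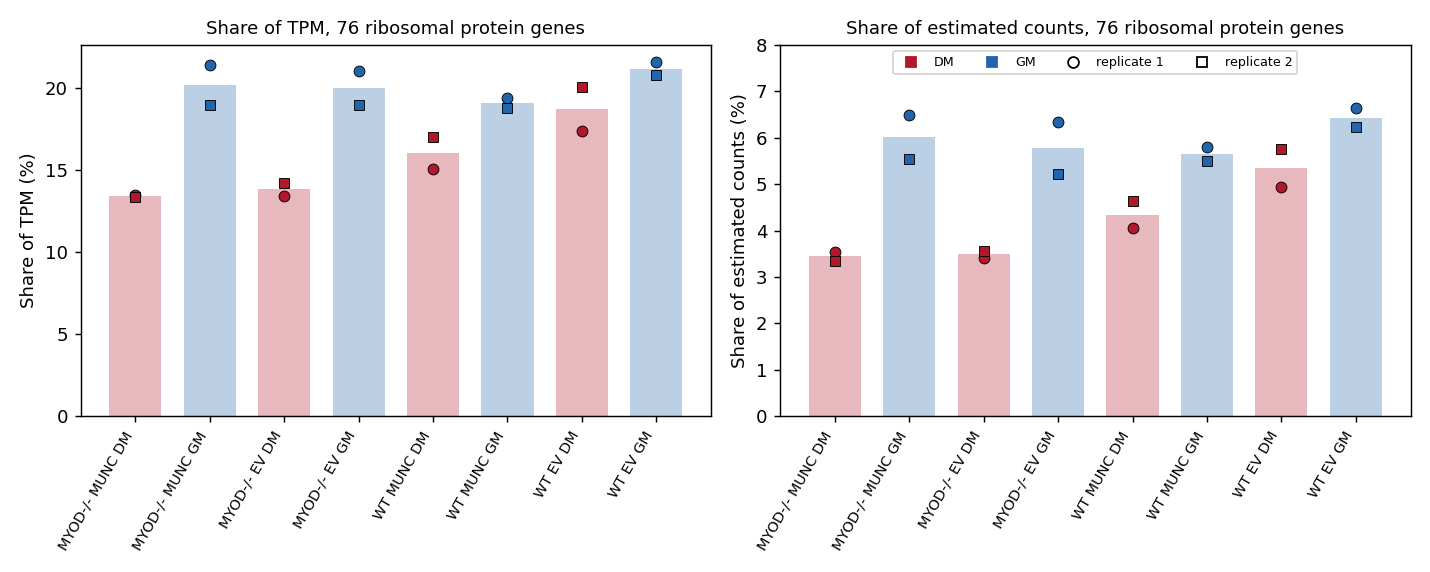
Share of all TPM (left, in percent) and of all estimated counts (right, in percent) taken by the 76 ribosomal protein genes in each of the 8 groups, with bars at the mean of 2 libraries and points for the libraries. The 4 labelled MYOD-/- libraries in DM sit between 13.4% and 14.2% of TPM, below every other library.

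As a share of the estimated counts, the members held 3.45% ± 0.137 in labelled MYOD-/- MUNC cells in DM and 6.01% ± 0.678 in GM, and 3.49% ± 0.112 in labelled MYOD-/- EV cells in DM and 5.78% ± 0.790 in GM (SD, n = 2 each). They held 4.34% ± 0.404 in labelled WT MUNC cells in DM and 5.64% ± 0.209 in GM, and 5.34% ± 0.583 in labelled WT EV cells in DM and 6.43% ± 0.296 in GM (SD, n = 2 each). The share in DM over that in GM was 0.573 ± 0.0421 for labelled MYOD-/- MUNC, 0.604 ± 0.103 for labelled MYOD-/- EV, 0.770 ± 0.1003 for labelled WT MUNC and 0.831 ± 0.129 for labelled WT EV. In the libraries numbered 1 the same ratios were 0.546, 0.538, 0.701 and 0.743, and in those numbered 2, which hold the Zrsr1 counts, they were 0.606, 0.684, 0.843 and 0.925. The ratio was below 1 in every line within each replicate number. With Zrsr1 taken out of the totals, the ratios of group means were 0.555, 0.588, 0.772 and 0.846 in the same order. The labelled WT EV libraries numbered 2 then held 6.09% in DM and 6.39% in GM. Labelled MYOD-/- EV cells in GM then held 6.17% ± 0.241 (SD, n = 2). The balance between the subunits moved little, and small subunit genes held 42.3% to 45.1% of the members' TPM in all 16 libraries. These shares are relative to all poly(A) RNA, and in bulk samples fewer cells of a kind and less RNA per cell cannot be told apart.

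Averaged over the 4 lines, 74 of the 76 members were lower in DM than in GM at an adjusted p under 0.05 and 0 were higher (edgeR's quasi-likelihood test, Benjamini-Hochberg adjustment over all 14972 genes). Of all tested genes, 30.4% were called lower and 36.3% higher. All 76 fitted changes were negative, with a median log2 fold change of -0.57 (0.673-fold), against 0.07 for all genes. The quartiles of the members were -0.68 and -0.49, and those of all genes -0.43 and 0.64. The large subunit genes had a median of -0.56 with 44 of 46 called, and the small subunit genes a median of -0.59 with all 30 called. Leaving out each library in turn gave 72 to 76 members called.

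**Figure D2:**
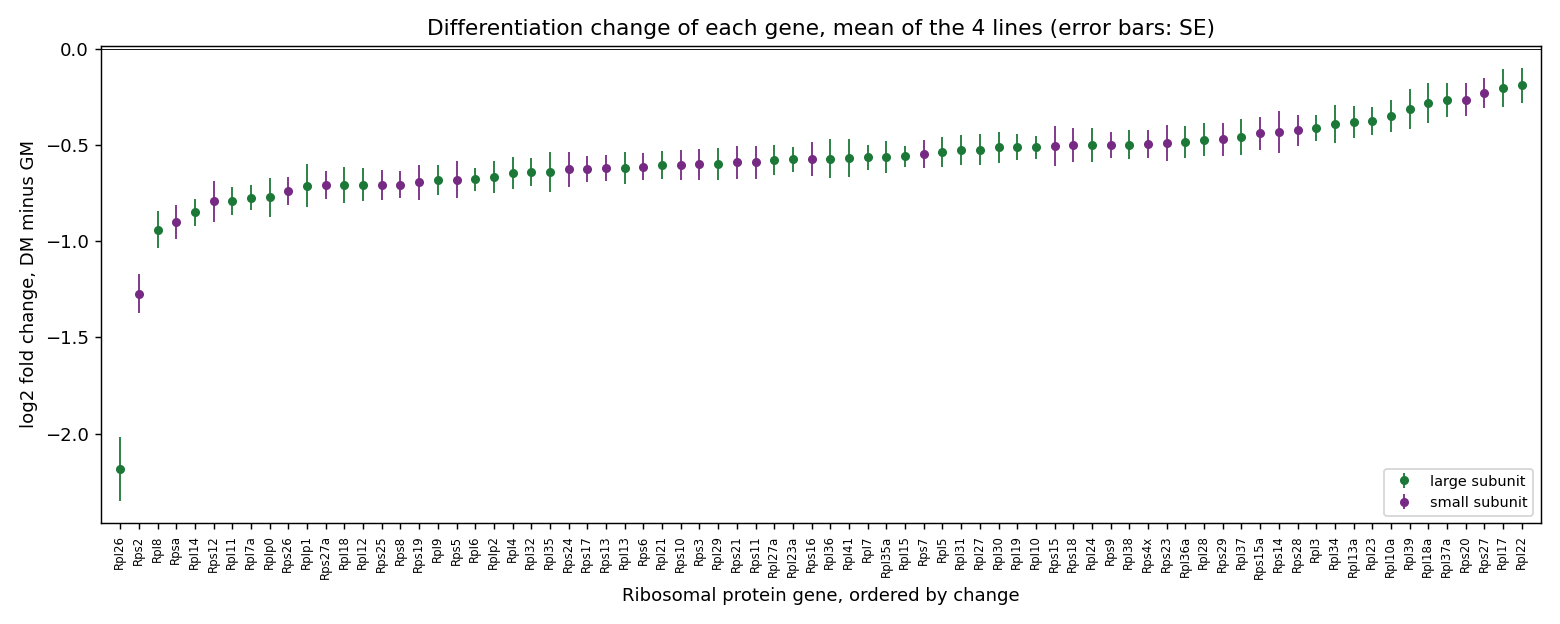
log2 fold change, DM minus GM, averaged over the 4 lines, for each of the 76 genes in order of size, with the SE of the fit as the error bar and the subunit as the colour. Rpl26 and Rps2 stand at the left with changes of -2.18 and -1.27, and most other members form a smooth slope that ends at Rpl22 with -0.19.

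Rps2, a small subunit protein near the entry of the mRNA channel, had the largest fitted change after Rpl26. A transcript named Gm10653 shares 246 words with it and held an average of 1791 counts, which is 1.57% of the counts of Rps2. It had 975 and 840.0 CPM in labelled MYOD-/- MUNC cells in DM, against 2419 and 2637 CPM in GM. In labelled MYOD-/- EV cells it had 888 and 996 CPM in DM, against 2329 and 2736 CPM in GM. In labelled WT MUNC cells it had 1072 and 1334 CPM in DM, against 2774 and 3256 CPM in GM. In labelled WT EV cells it had 1155 and 1812 CPM in DM, against 2630.2 and 2738 CPM in GM. All 8 DM libraries lay below all 8 GM libraries, and the mean over the lines fell to 0.414-fold (log2 fold change -1.27, SE 0.10, adjusted p = 8.55e-07 in edgeR's quasi-likelihood test). It ranked directly after Rpl26 in each of the 4 lines.

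Rpsa, the laminin receptor protein of the small subunit, had 794 and 759.7 CPM in labelled MYOD-/- MUNC cells in DM, against 1883 and 1815 CPM in GM. In labelled MYOD-/- EV cells it had 781 and 907 CPM in DM, against 1828 and 1941 CPM in GM. In labelled WT MUNC cells it had 967 and 1273 CPM in DM, against 1827 and 1929.5 CPM in GM. In labelled WT EV cells it had 1124 and 1632 CPM in DM, against 1867 and 1872 CPM in GM. Its GM values were nearly level over the 4 lines, and its DM group means followed the order of the members' share. Over the lines it fell to 0.536-fold (log2 fold change -0.90, SE 0.09, adjusted p = 4.31e-06 in edgeR's quasi-likelihood test).

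Other large subunit genes fell as follows, in log2 fold change over the 4 lines. Rpl8 had -0.94 (SE 0.09, 0.522-fold), Rpl14 had -0.85 (SE 0.07) and Rpl7a had -0.77 (SE 0.06). Rpl11, which together with Rpl5 can bind Mdm2 and so raise p53, had -0.79 (SE 0.07), and Rpl5 had -0.53 (SE 0.08). Rpl11 held 260.3 to 351 CPM in the 8 DM libraries, against 455 to 651 CPM in the 8 GM libraries, with no overlap. The stalk genes Rplp0, Rplp1 and Rplp2 had -0.77, -0.71 and -0.67. Rpl3, at the peptidyl transferase centre, had -0.41 (SE 0.07), and Rpl10, which joins the subunit late in assembly, had -0.51 (SE 0.06). Rpl32 and Rpl13a, often used as reference genes in PCR, had -0.64 and -0.38. All of these passed the test.

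Among the small subunit genes Rps12 had -0.79 (SE 0.11) and Rps26, at the mRNA exit, -0.74 (SE 0.07). Rps27a, made as a fusion with ubiquitin, had -0.71 (SE 0.07), and Rps19, the gene most often mutated in human Diamond-Blackfan anaemia, had -0.69 (SE 0.09). Rps6, the substrate of the S6 kinases, had -0.61 (SE 0.07) and Rps4x -0.49 (SE 0.07). Rps14, whose human counterpart lies in a region deleted in some myelodysplastic syndromes, had -0.43 (SE 0.11). The adjusted p of these 7 genes was at most 0.00400 in edgeR's quasi-likelihood test.

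The members with the smallest changes were Rpl22 (-0.19, SE 0.09), Rpl17 (-0.20, SE 0.10), Rps27 (-0.23, SE 0.08), Rps20 (-0.26, SE 0.08) and Rpl37a (-0.26, SE 0.09). Rpl22 and Rpl17 did not pass the test, with adjusted p of 0.0907 and 0.0940 in edgeR's quasi-likelihood test. Both passed without labelled MYOD-/- MUNC GM replicate 2 (-0.28 and -0.30) and without labelled MYOD-/- EV GM replicate 2 (-0.27 and -0.29). Rpl22 had 227 and 223 CPM in labelled MYOD-/- MUNC cells in DM, against 324 and 231 CPM in GM, and 266 and 235 CPM in labelled WT EV cells in DM, against 327 and 259 CPM in GM. In GM its library numbered 1 lay above the library numbered 2 in all 4 lines. Rps27 passed over the lines with an adjusted p of 0.0253, and Rpl39, a small protein of the peptide exit tunnel, with 0.0208 (log2 fold change -0.31, SE 0.10). Each lost its call in 4 alternative settings. Among them were the fits without replicate 1 of labelled MYOD-/- MUNC GM, of labelled WT MUNC GM or of labelled WT EV GM. There Rps27 had -0.17, -0.21 and -0.21 and Rpl39 had -0.24, -0.28 and -0.27. By TPM Rps27 had 3742 and 3674 in labelled WT EV cells in DM, against 3426 and 3205 in GM. In labelled WT MUNC cells it had 3747 and 4098 TPM in DM, against 3607 and 3111 TPM in GM. Its mean TPM was lower in DM in both labelled MYOD-/- lines.

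Rpl26 had the largest fitted fall, -2.18 (SE 0.17). With the counts of Gm15772 and other copies added to their members, an alternative chosen after the data were seen, it was -0.44. That is a smaller fall than at either quartile of the members given above. Gm15772 itself had -0.42 (SE 0.07).

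The number of members called lower differed between lines. In labelled MYOD-/- MUNC cells 72 were called lower in DM and 0 higher, against 20.4% of all genes lower and 24.4% higher, with a median of -0.83. In labelled MYOD-/- EV cells 69 were called lower and 0 higher, against 19.7% of all genes lower and 23.5% higher, with a median of -0.73. In labelled WT MUNC cells 30 were called lower and 0 higher, against 19.2% of all genes lower and 20.5% higher, with a median of -0.38. In labelled WT EV cells 19 were called lower and 0 higher, against 18.3% of all genes lower and 19.2% higher, with a median of -0.34. The share of genes called lower over the whole transcriptome was thus close in the 4 lines, while the members' counts ran from 19 to 72.

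**Figure D3:**
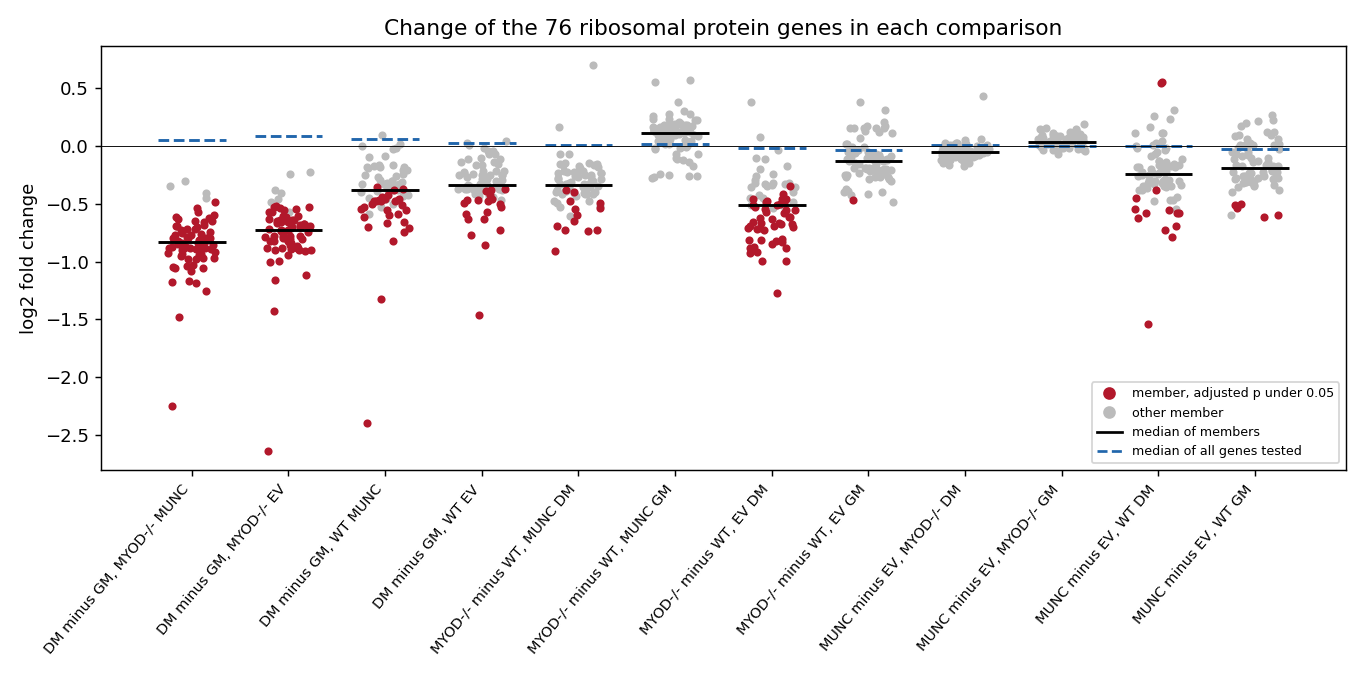
log2 fold change of the 76 genes in each of 12 comparisons, with red points for genes at an adjusted p under 0.05, grey points for the others, a black line at the members' median and a dashed blue line at the median of all genes tested. The members' medians of -0.83, -0.73, -0.38 and -0.34 in the 4 differentiation comparisons lie below the medians of all genes, which are between 0.02 and 0.08.

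The counts in the labelled WT lines rested on single libraries. For labelled WT EV the count of 19 was 6 without GM replicate 1, 2 without DM replicate 1 and 36 without DM replicate 2. For labelled WT MUNC the count of 30 was 10 without GM replicate 1, 15 without GM replicate 2 and 5 without DM replicate 1. Leaving out any library gave 49 to 67 called for labelled MYOD-/- EV and 63 to 70 for labelled MYOD-/- MUNC.

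By gene, Rps2 fell in each line, by -1.48, -1.43, -1.33 and -0.86 on the log2 scale in labelled MYOD-/- MUNC, labelled MYOD-/- EV, labelled WT MUNC and labelled WT EV cells, and the last of these calls ended without labelled WT EV DM replicate 1 (-0.55). Rpl11 had -0.97, -0.88, -0.53 and -0.77 in the same order and passed in each, though not in labelled WT MUNC cells without DM replicate 1 (-0.48) or without GM replicate 1 (-0.45). Rplp0 had -1.17, -0.94, -0.60 and -0.37, and the last did not pass (adjusted p = 0.160 in edgeR's quasi-likelihood test). The call of Rplp0 in labelled WT MUNC cells ended without DM replicate 1 (-0.40), GM replicate 1 (-0.68) or GM replicate 2 (-0.52). Rps24, whose mRNA is alternatively spliced near its end, had -0.94, -0.87, -0.62 and -0.07, and the last did not pass (adjusted p = 0.801 in the same test). Rpl37a had -0.35, -0.24, 0.01 and -0.47 and passed in none of the 4 lines, but in labelled WT EV cells it passed without DM replicate 2 (-0.77). The directions of Rps24 in labelled WT EV cells and of Rpl37a in labelled WT MUNC cells turned under other settings, among them Rps24 without GM replicate 1 (0.13) and Rpl37a without GM replicate 1 (-0.06) or DM replicate 2 (-0.14).

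The order of the members was most alike among the 3 lines other than labelled WT EV. Across the 75 members other than Rpl26, Pearson's r between the changes was 0.94 for labelled MYOD-/- MUNC with labelled MYOD-/- EV, 0.91 for labelled MYOD-/- EV with labelled WT MUNC and 0.87 for labelled MYOD-/- MUNC with labelled WT MUNC. With labelled WT EV it was 0.59 for labelled MYOD-/- EV, 0.55 for labelled WT MUNC and 0.54 for labelled MYOD-/- MUNC. The lines share no library, but the points are genes of the same libraries and are not independent. Both labelled WT lines, whose medians lie closer to 0, have changes of a size nearer to their error. The part of this in r was not tested.

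**Figure D4:**
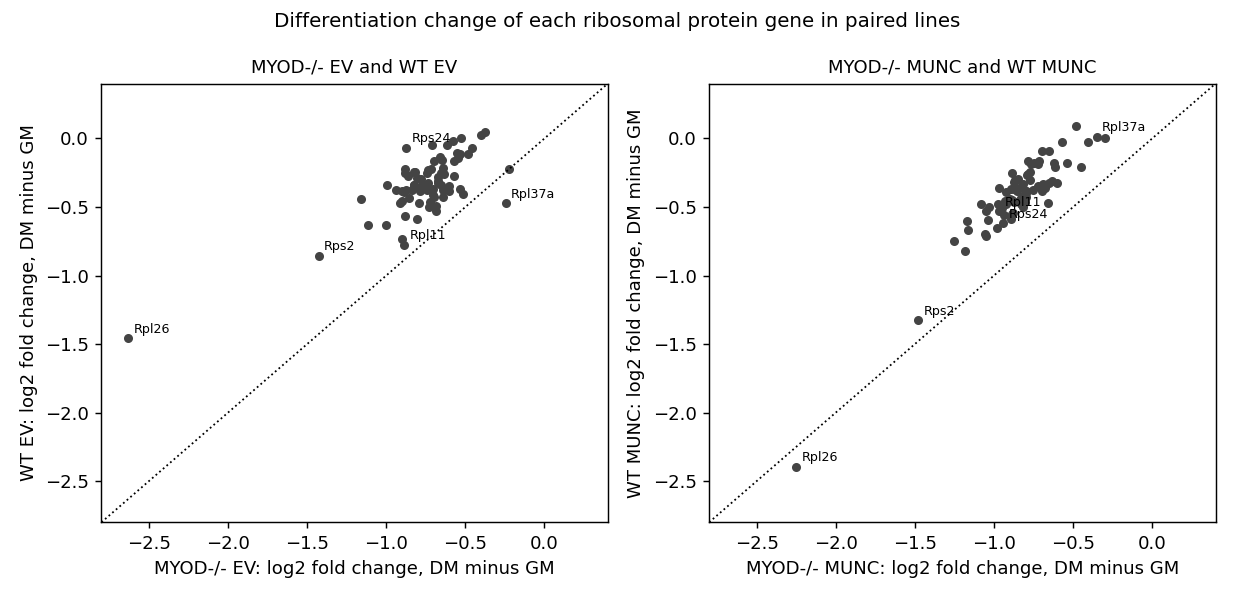
log2 fold change, DM minus GM, of each of the 76 genes in the labelled MYOD-/- line on the horizontal axis and in the labelled WT line with the same vector on the vertical axis, with a dotted line where both are equal. With EV 74 points and with MUNC 75 points lie on the side where the labelled MYOD-/- fall is larger. The points of a panel come from the same libraries and are not independent.

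The fitted fall was larger in labelled MYOD-/- than in labelled WT cells for 74 of 76 members with EV, by a median of -0.42 on the log2 scale, and for 75 of 76 with MUNC, by a median of -0.44. The members come from the same libraries and are not independent, and the share of all genes with a larger fall is not given here. No single member passed the test of the difference between the labelled genotypes. With EV 0 of 76 were called, against 0.922% of all genes with a more negative and 1.66% with a more positive change, 20 had an unadjusted p under 0.05 and DESeq2 called 4. With MUNC 0 of 76 were called, against 0.14% and 1.24% of all genes, 20 had an unadjusted p under 0.05 and DESeq2 called 1. These percentages of all genes are those at an adjusted p in edgeR. Shares of all genes at an unadjusted p or in DESeq2 are not given here, so those member counts cannot be judged against them. The largest differences with EV other than that of Rpl26 were those of Rps24 (-0.81, SE 0.26) and Rpsa (-0.72, SE 0.25), with adjusted p of 0.132 and 0.169 in edgeR's quasi-likelihood test. With MUNC they were those of Rps21 (-0.64, SE 0.24) and Rpl37 (-0.62, SE 0.27), with adjusted p of 0.326 and 0.406 in that test. Without labelled WT EV DM replicate 1 the count with EV was 1, and the member called was Rpsa (-1.04).

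The labelled genotypes were then compared at the same stage. In DM with EV, 47 members were lower in labelled MYOD-/- than in labelled WT cells and 0 higher, against 16.1% of all genes lower and 15.3% higher, with a median of -0.51. Rps24 had 417 and 422 CPM in labelled MYOD-/- EV cells in DM, against 823 and 853 CPM in labelled WT EV cells in DM, which is -0.997 on the log2 scale (SE 0.18, adjusted p = 0.00209 in edgeR's quasi-likelihood test). Rpl12, of the stalk base, had 423 and 441 CPM, against 708 and 1011 CPM (-0.99, SE 0.17, adjusted p = 0.00146 in the same test). Rps18 and Rpl38 fell by 0.93 and 0.92 on the log2 scale. The count was 15 without labelled WT EV DM replicate 2, 12 without labelled MYOD-/- EV DM replicate 1 and 30 without labelled MYOD-/- EV DM replicate 2. In these groups the summed muscle markers were 1120 to 1125 TPM in labelled MYOD-/- EV and 140 to 182 TPM in labelled WT EV cells. The 6 fibroblast markers summed to 1298 to 2591 TPM and 5027 to 6009 TPM in the same order. Genes of that list went both ways. Ly6a had 260 and 133 CPM in labelled MYOD-/- EV, against 2009 and 1984 CPM in labelled WT EV cells. Dcn had 742 and 320 CPM against 337 and 76.1 CPM, and Lum 201 and 55.5 CPM against 1.27 and 0.136 CPM. The part of either marker list in the members' levels was not tested.

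In DM with MUNC, 13 members were lower in labelled MYOD-/- than in labelled WT cells and 0 higher, against 9.89% of all genes lower and 12.8% higher, with a median of -0.34. Rps21 had 202 and 194 CPM in labelled MYOD-/- MUNC cells in DM, against 330.3 and 412 CPM in labelled WT MUNC cells in DM (-0.91, SE 0.17, adjusted p = 0.00348 in edgeR's quasi-likelihood test). Rps23, of the decoding centre, Rpl10a, Rps10 and Rps29 had -0.74, -0.73, -0.73 and -0.70. The count was 1 without labelled WT MUNC DM replicate 2, 7 without labelled MYOD-/- MUNC DM replicate 1 and 2 without labelled MYOD-/- MUNC DM replicate 2. All 4 of the genes named after Rps21 lost their call without labelled WT MUNC DM replicate 2, with -0.51, -0.54, -0.53 and -0.52. Without labelled MYOD-/- MUNC DM replicate 2 Rps23, Rpl10a and Rps29 also lost it (-0.80, -0.62 and -0.61), and without replicate 1 of that group Rps23 did (-0.69).

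In GM at most 1 member passed the test between the labelled genotypes. With EV 1 member was lower in labelled MYOD-/- cells and 0 higher, against 5.77% of all genes lower and 4.58% higher. It was Rpl23a, with 935 and 941 CPM in labelled MYOD-/- EV cells in GM, against 1329 and 1270.5 CPM in labelled WT EV cells in GM (-0.47, SE 0.13, adjusted p = 0.0462 in edgeR's quasi-likelihood test). Its call ended when any of these 4 libraries was left out, with -0.43 to -0.51. With MUNC 0 members were called in either direction, against 5.02% of all genes lower and 4.98% higher, with a median of 0.11, 2 members at an unadjusted p under 0.05 and 1 called by DESeq2.

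Some members differed between labelled WT MUNC and labelled WT EV cells. These are separate stably transfected lines, so MUNC and other differences between the lines cannot be told apart. In DM 12 members were lower and 2 higher in labelled WT MUNC than in labelled WT EV cells, against 17.7% of all genes lower and 15.6% higher, so the members' shares did not exceed those of all genes. Rpl27 had 254 and 308 CPM in labelled WT MUNC cells in DM, against 404 and 563 CPM in labelled WT EV cells in DM (-0.78, SE 0.16, adjusted p = 0.00360 in edgeR's quasi-likelihood test). Rpl19 had 749 and 904 CPM, against 1242 and 1497 CPM (-0.73, SE 0.14, adjusted p = 0.00208 in that test). The members that rose were Rps21, with 330.3 and 412 CPM against 211 and 297 CPM (0.55, SE 0.17, adjusted p = 0.0295 in that test), and Rpl37a, with 318 and 389 CPM against 197 and 289 CPM (0.54, SE 0.18, adjusted p = 0.0351 in that test). Neither rise was called without labelled WT EV DM replicate 1 (0.31 and 0.28) or without labelled WT MUNC DM replicate 2 (0.38 and 0.39). The count of 14 was 25 without labelled WT EV DM replicate 1, 6 without labelled WT EV DM replicate 2 and 5 without labelled WT MUNC DM replicate 1.

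In GM 5 members (Rpl23a, Rpl27, Rpl23, Rpl19 and Rps6) were lower in labelled WT MUNC than in labelled WT EV cells and 0 higher. Of all genes, 7.71% were lower and 6.04% higher, so the members' shares did not exceed those of all genes. Rpl23a had 847 and 846 CPM in labelled WT MUNC cells in GM, against 1329 and 1270.5 CPM in labelled WT EV cells in GM (-0.62, SE 0.13, adjusted p = 0.0109 in edgeR's quasi-likelihood test). The count was 2 without labelled WT EV GM replicate 2 and 0 without any of the other 3 libraries. In labelled MYOD-/- cells no member passed the test for MUNC against EV. In GM 0 of the 76 members and 0 of all genes were called by edgeR's quasi-likelihood test and by DESeq2, with 0 members and 191 of all genes at an unadjusted p under 0.05, and 0% of all genes called. In DM 0 members and 0 of all genes were called, 0 members and 152 of all genes had an unadjusted p under 0.05, and DESeq2 called 4 genes, none of them a member. The members' log2 fold changes lay between -0.07 and 0.19 in GM and between -0.18 and 0.43 in DM. MUNC itself was far lower in these cells than in the labelled WT MUNC cells, as given above.

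Across the 8 groups, 63 of the 76 members had their lowest mean CPM in labelled MYOD-/- MUNC cells in DM and 9 in labelled MYOD-/- EV cells in DM. The highest mean lay in labelled WT EV cells in GM for 47 members, in labelled MYOD-/- MUNC cells in GM for 14 and in labelled WT MUNC cells in GM for 9. Rps20 and Rpl17 had their highest mean in labelled WT EV cells in DM, and Rpl21 and Rpl37a their lowest there. The range between the highest and lowest group means was widest for Rpl26 (3.02 on the log2 scale), Rps2 (1.73), Rpl8, Rpl12 (each 1.32) and Rpl23a (1.30).

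The related genes outside the naming rule fell too. Of the 8 that were tested, 7 were lower in DM over the lines and 0 higher, with a median of -0.47. Rpl3l, Rpl10l, Rpl39l and Rps4l had 0 to 5 counts in any library and were not tested. Rps3a1 and Rack1 each had -0.47 (SE 0.07 and 0.10), and Fau, made as a fusion with a ubiquitin-like protein, had -0.34 (SE 0.08). Rps27l, the paralog of Rps27, had -0.87 (SE 0.14), against -0.23 for Rps27. Rps27l had 76.1 and 83.4 CPM in labelled MYOD-/- MUNC cells in DM, against 167 and 97.7 CPM in GM, and 99.4 and 105 CPM in labelled WT EV cells in DM, against 217 and 151 CPM in GM. Rpl22l1, the paralog of Rpl22, had -0.45 (SE 0.23) and did not pass (adjusted p = 0.106 in edgeR's quasi-likelihood test). Its GM libraries numbered 1 held 143 to 157 CPM and those numbered 2 held 65.4 to 80.1 CPM.

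Most genes of the other lists on translation and ribosome production were lower in DM too, with the exception of the mTOR list. Of 49 ribosome assembly factors 48 were lower in DM over the lines and 0 higher, with a median of -1.34, against 30.4% lower and 36.3% higher of all genes. Among them the pseudouridine synthase Dkc1 fell to 0.210-fold (-2.25, SE 0.09), Rrp12 had -1.82 and the box C/D protein Nop56 -1.80. Of 16 genes for RNA polymerase I and its factors 13 were lower and 1 higher, with a median of -0.64, and Polr1b had -1.58 (SE 0.14). Myc, a transcription factor that raises ribosome production and is counted in that list, had 29.9 and 26.2 CPM in labelled MYOD-/- MUNC cells in DM, against 57.7 and 81.6 CPM in GM, and 49.6 and 91.4 CPM in labelled WT EV cells in DM, against 69.9 and 73.3 CPM in GM.

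Of 37 initiation factors 29 were lower and 1, the helicase Eif4a2, higher (0.26, SE 0.08), with a median of -0.58. Its paralog Eif4a1 had -1.10 (SE 0.06). Of 11 tested elongation and release factors 8 were lower and 0 higher, with a median of -1.02, and Eif5a had -1.58 (SE 0.07). Of 17 other genes whose mRNAs are known for the pyrimidine motif, 10 of which are in the lists above too, 11 were lower and 0 higher, with a median of -0.58. Among them Nap1l1 had -1.34 and Npm1 -1.30, while Eef1a1 had -0.19 and did not pass (adjusted p = 0.0684 in edgeR's quasi-likelihood test). Of 20 genes of mTOR signalling 8 were lower and 4 higher, with a median of 0.08, and Larp1, which binds the pyrimidine motif, had -0.80 (SE 0.08), while Pdcd4, an inhibitor of Eif4a, had 2.46 (SE 0.17). Of 78 mitochondrial ribosomal protein genes 59 were lower and 2 higher, with a median of -0.42.

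**Figure D5:**
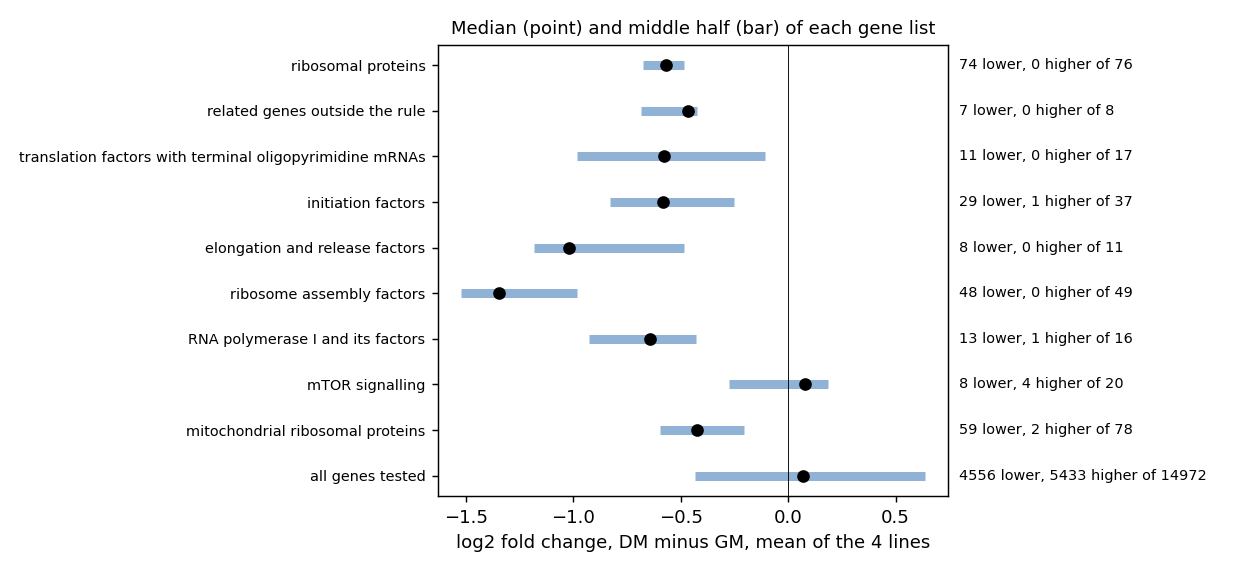
Median (point) and quartiles (ends of the bar) of the log2 fold change, DM minus GM over the 4 lines, for the 76 members, 8 other gene lists and all genes tested, with the counts called lower and higher at the right. The members' median is -0.57, that of the assembly factors -1.34, that of the mitochondrial ribosomal proteins -0.42 and that of all genes 0.07.

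The cycling-cell and fibroblast markers changed between GM and DM along with the members, and the part of either in the members' change was not tested. Over the 4 lines 8 of 8 cycling-cell markers were lower in DM and 5 of 5 tested fibroblast markers higher, with the summed levels of the second list given above. The cycling-cell markers summed to 496 to 554 TPM in labelled MYOD-/- MUNC, 425 to 580 TPM in labelled MYOD-/- EV, 416 to 423 TPM in labelled WT MUNC and 365 to 393 TPM in labelled WT EV cells in DM, against 1210 to 1591 TPM in the GM libraries. The DM sums of these markers were lowest in the labelled WT EV cells, and their relation to the members' share over the lines was not tested.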

How the data were processed

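Poly(A) RNA of 16 libraries in 8 groups of 2 was sequenced, and the authors deposited kallisto tables of estimated counts and TPM for 35818 transcripts, per the file headers. Per the submitters' processing notes, bcl2fastq, kallisto and mm10 were used, with versions not given in the sources used here. Here estimated counts were summed per gene symbol (RefSeq GRCm38.p6 for 35492 transcripts, GENCODE for 188) and rounded. The 138 transcripts without a symbol, holding 0.280% to 0.941% of the counts, stayed out of library sizes and tests.

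All 8 groups entered a single fit over the 14972 genes that passed filterByExpr, with TMM scaling and edgeR 4.0.16's quasi-likelihood test in R 4.3.3, and p-values were Benjamini-Hochberg adjusted over all genes. The model had 8 residual degrees of freedom. The script was tested on simulated data. Alternatives used DESeq2 1.42.0, limma 3.58.1 on log2(TPM + 1), other scalings, filters and length offsets, a replicate block and leaving out libraries. Means are given ± SD. The SD of a ratio of shares is that of the ratios of same-numbered libraries (n = 2), which are not pairs. Genes named were the 5 called members with the largest change each way in a comparison, the 5 highest, lowest and most variable members, a fixed panel of members, and up to 3 called genes each way of each other list. Rps24 and Rpl37a across lines, Rpl17, Rps20, Rpl21 and the leading differences between genotypes, which did not pass the test, were chosen after their values were seen. A gene of the related list is not reported here by name. The members and lists were chosen with earlier results of these data known. Counting error is small at these depths, so the number of libraries limits the precision.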

Additional observations from a re-analysis of the deposited data

Results flagged for a closer look

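As deposited, the values of Rpl26 in DM lay on opposite sides with MUNC in the labelled genotypes. Its log2 fold change, MUNC minus EV, was 0.43 in the labelled MYOD-/- cells, where it had 2.62 and 2.63 CPM with MUNC and 1.38 and 2.51 CPM with EV. It was -1.54 in the labelled WT cells, where it had 1.12 and 2.08 CPM with MUNC and 3.56 and 5.85 CPM with EV. The libraries of the MUNC and EV groups did not overlap in either genotype, and the difference between the genotypes was not tested. Only the change in labelled WT cells passed the test. In the labelled MYOD-/- libraries in DM, Rpl26 held 0.353% to 0.695% of the counts of Rpl26 and Gm15772. With the copies added, the change was -0.10 in labelled MYOD-/- cells and -0.82 in labelled WT cells, so the opposite directions were not there. The sum of both genes was 412 and 379 CPM with MUNC and 390.4 and 455 CPM with EV in labelled MYOD-/- cells, and 409 and 503 CPM with MUNC and 716 and 891 CPM with EV in labelled WT cells.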

How the results depend on the processing

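Numbers in this paragraph count members called. None of the 112 named changes past the threshold reversed its direction under any alternative. For DM minus GM in labelled WT EV cells, with 19 called, the count was 11 with no filter, 12 with limma on log2(TPM + 1) and 31 with the replicate block. In labelled WT MUNC cells, with 30 called, limma gave 11. For labelled MYOD-/- minus labelled WT, EV GM gave 0 in place of 1 with DESeq2 size factors, with TMM factors computed without the members, with no filter and with limma. MUNC GM gave 1 in place of 0 with DESeq2 and with the replicate block. MUNC DM, with 13 called, gave 23 with DESeq2, 20 with a filter of 5 CPM in 2 libraries and 21 with the replicate block. For MUNC minus EV in labelled WT GM, with 5 called, no filter gave 1. The difference of the differentiation changes between genotypes gave 4 with EV and 1 with MUNC in DESeq2, in place of 0. By TPM the share of members in DM over GM was 0.6649 in labelled MYOD-/- MUNC and 0.6912 in labelled MYOD-/- EV cells. It was 0.8402 in labelled WT MUNC and 0.8857 in labelled WT EV cells. By counts these ratios were lower, at 0.573, 0.604, 0.770 and 0.831 in the same order. The cause was not tested for any of these.

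Of the named changes that did not pass, those of 5 turned. Rpl26 for MUNC minus EV in labelled MYOD-/- DM was -0.0956 with the copies added. Rps24 in labelled WT EV cells was 0.0926 with limma and -0.239 to 0.126 when a library was left out. Rpl37a in labelled WT MUNC cells was -0.0186 with TMM factors computed without the members, -0.00442 with no filter, -0.0270 with effective length offsets and -0.144 to 0.133 when a library was left out. Over the lines Rpl17 was 0.0244 and Rpl22 0.0457 with limma.

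Libraries with the same replicate number tended to deviate together. The correlation of their deviations was 0.508 to 0.712 between GM groups, over 0.1 in 23 of all 28 pairs of groups and as low as -0.01262 in the others. Every pair not over 0.1 held the labelled MYOD-/- MUNC group in DM, and all pairs among the other groups were at 0.149 or more. The labels name no shared batch, and the numbers were not used as pairs. A shared effect of the number thus remains in the spread within groups, where it can keep members from being called. Counts for the other comparisons stayed within 1.5 times under the block. Under it Rpl22 over the lines (-0.18) and Rplp0 (-0.39) and Rpl37a (-0.48) in labelled WT EV cells passed the test.

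Leaving out each library in turn gave 2 to 36 called for DM minus GM in labelled WT EV, 5 to 38 in labelled WT MUNC, 49 to 67 in labelled MYOD-/- EV, 63 to 70 in labelled MYOD-/- MUNC and 72 to 76 over the lines. It gave 0 for labelled MYOD-/- minus labelled WT in EV GM, 12 to 57 in EV DM, 0 in MUNC GM and 1 to 17 in MUNC DM. It gave 0 to 2 for MUNC minus EV in labelled WT GM, 5 to 25 in labelled WT DM, 0 in labelled MYOD-/- GM and DM, and 0 to 1 and 0 for the differences between genotypes with EV and with MUNC. The lone library left in a group was assumed to vary like the others. The share ratio of labelled MYOD-/- MUNC ran from 0.5311 to 0.623.

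On the log2(TPM + 1) scale the median of all genes over the 4 lines was 0.16, against 0.07 in the main analysis, and 7363 genes were called higher and 3158 lower, against 5433 and 4556. The members' median was then -0.37, with 66 called.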
